A study of Ovis aries with 12 samples.

Results

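The aryl hydrocarbon receptor genes were followed in epithelial cells of the ampulla, the stretch of the oviduct where eggs are fertilised, from sheep (Ovis aries) during the first hours of oestradiol treatment. They were chosen by name as a known pathway, with earlier results of these same counts in view, in which the CYP1 enzymes differed between the treated times and 0 h. Their differences from 0 h are therefore given as a description, with no test. Of 8 names, 6 matched the gene symbol of a row among 18340 genes: CYP1A1, CYP1A2, CYP1B1, TIPARP, ARNT and NQO1. The receptor gene AHR has no symbol in the table, and its row was found by its description and its NCBI Gene number. It is described beside the 6, which makes 7 genes, and AHRR was not analysed here.

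The cells had been scraped from the mucosa after trypsin and kept for 12 h in medium with neither serum nor phenol red, a pH dye that can act as a weak oestrogen. Samples were taken at 0 h and after 1.5, 3.5 and 5.5 h of oestradiol (E2) at 10 nM, with 3 libraries at each time, numbered 1 to 3, and 12 libraries in all. Every group shared the starvation, and libraries kept without oestradiol beyond 0 h were not analysed here, so time in culture and oestradiol cannot be told apart. The labels give no strain, age or number of animals and do not say whether libraries of 1 time came from separate cultures, so a p-value here covers only how much these 12 libraries vary, and that variation may be technical.

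The receptor rests in the cytoplasm in a complex with HSP90 chaperones. When a ligand binds, it moves to the nucleus, pairs with ARNT and binds xenobiotic response elements near its target genes. Its best known targets are the CYP1 monooxygenases, which oxidise polycyclic aromatic compounds and also hydroxylate oestradiol, and the repressors AHRR and TIPARP, which limit the response. Ligands include pollutants such as dioxins and products of tryptophan.

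Total counts in genes lay between 4.85e+07 and 7.94e+07 per library. The libraries numbered 3 stood apart from the others at 0, 3.5 and 5.5 h, at 50 to 57.1 on the first principal component, which held 44.1% of the variance, against −29.3 to −13.3 for the libraries numbered 1 and 2 at any time. The library numbered 3 at 1.5 h lay between them, at 5.26. Epithelial markers (KRT7, KRT8, KRT18, EPCAM, CDH1 and CLDN4) summed to 13925 to 18890 CPM (counts scaled to library size) in every library. The secretory cell factor PAX8 averaged 216 CPM and the oviduct glycoprotein OVGP1 1.33 CPM. Of the ciliated cell markers, TPPP3 averaged 20.6 CPM, while FOXJ1, CAPS and DNAH9 averaged 0.0428, 0.23 and 0.236 CPM. Of the endothelial markers, VWF averaged 97.5 CPM, CDH5 51.1 CPM and KDR 3.84 CPM, while PECAM1 and TEK averaged 0.151 and 0.13 CPM. Of the immune markers, CD68 and CD14 averaged 15.2 and 11.2 CPM, while the pan-leukocyte gene PTPRC averaged 0.177 CPM. The oestrogen receptor gene ESR1 averaged 8.69 ± 1.97 CPM at 1.5 h, 11.4 ± 2.86 at 3.5 h and 9.37 ± 1.23 at 5.5 h, against 11.7 ± 5.44 at 0 h (SD, n = 3).

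Per length, in FPKM (fragments adjusted for gene length and depth), TIPARP was the most abundant of the 7 genes over the 12 libraries, at a mean of 99.6 FPKM, above 91.4% of the 12025 genes with a mean of at least 1 FPKM. The dimer partner ARNT followed at 17.6 FPKM. AHR (9.74 FPKM), CYP1A1 (9.18), CYP1B1 (8.49) and NQO1 (7.99) lay close to each other, with SDs over the 12 libraries of 2.5, 5.32, 5.18 and 1.84 FPKM, so their order is within their spread. The CYP1B1 counts give 8.58 ± 6.27 FPKM, since 2 of its deposited FPKM values do not follow them. CYP1A2 was the lowest at 2.34 ± 1.34 FPKM. All 7 genes passed the minimum of 1 FPKM, and each had 1 transcript in the deposited isoform table, so no isoform could be compared.

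Positions are those of the authors' table, and the genome build is not given in the sources used here. CYP1A2 (chromosome 18, 32831356 to 32839372, minus strand, 7 exons) and CYP1A1 (chromosome 18, 32844396 to 32846884, plus strand, 7 exons) lie head to head, with 5024 bases between their 5′ ends. CYP1B1 (chromosome 3, 85950947 to 85956168, plus strand) has 3 exons, and TIPARP (chromosome 1, 229025389 to 229050958, minus strand) has 5. AHR (chromosome 4, 25879996 to 25928285, plus strand) has 11 exons, ARNT (chromosome 1, 99680911 to 99747432, minus strand) has 22 and NQO1 (chromosome 14, 36118808 to 36131168, minus strand) has 6.

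CYP1A1, the enzyme most often used as a readout of receptor activity, had its highest mean at 1.5 h, although number 1 was highest at 3.5 h. It had 14.9, 30.4 and 14.1 CPM in numbers 1, 2 and 3 at 1.5 h, 15.5, 22.9 and 9.41 CPM at 3.5 h and 10.6, 18.8 and 5.89 CPM at 5.5 h, against 8.72, 8.7 and 1.59 CPM at 0 h. All 3 libraries at 1.5 h and at 3.5 h lay above all 3 at 0 h, while at 5.5 h number 3 overlapped the 0 h range. The lowest value was that of number 3 at 0 h, with 78 counts. In bulk samples, fewer cells of a type and less RNA per cell cannot be told apart. The log2 difference in CPM from 0 h was 1.64 ± 0.63 at 1.5 h (SE), 1.32 ± 0.62 at 3.5 h and 0.89 ± 0.62 at 5.5 h, which is 3.11-fold, 2.5-fold and 1.86-fold. Within same-numbered pairs, the fold at 1.5 h was 1.7, 3.5 and 8.89 for numbers 1, 2 and 3.

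CYP1A2, its neighbour, which oxidises caffeine and aromatic amines, was also higher at 1.5 and 3.5 h than at 0 h, at lower CPM than CYP1A1. Numbers 1 and 3 were higher at 3.5 h than at 1.5 h, and number 2 was lower. It had 4.96, 10.9 and 5.7 CPM at 1.5 h, 5.56, 8.12 and 6.4 CPM at 3.5 h and 4.18, 6.56 and 1.14 CPM at 5.5 h, against 2.44, 3.23 and 1.02 CPM at 0 h. Again the 1.5 h and 3.5 h libraries all lay above the 0 h libraries, and at 5.5 h number 3 lay inside the 0 h range. The log2 difference from 0 h was 1.68 ± 0.59 at 1.5 h, 1.58 ± 0.58 at 3.5 h and 0.83 ± 0.58 at 5.5 h (SE). Number 3 had 338 counts at 1.5 h, 355 at 3.5 h and 57 at 5.5 h, against 50 at 0 h, and at 3.5 h the pair fold was 2.28, 2.51 and 6.3 for numbers 1, 2 and 3.

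The FPKM of CYP1A1 was 2.15 to 7.56 times that of CYP1A2 in the same library, with a median of 4.06. In the 8 libraries numbered 1 and 2 the ratio stayed between 3.71 and 5.21, and all 3 values outside 3.61 to 5.21 came from number 3 (2.29 at 0 h, 2.15 at 3.5 h and 7.56 at 5.5 h). The pair are paralogs, and how reads that match both were counted is not given in the sources used here.

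CYP1B1, which makes 4-hydroxyoestradiol from oestradiol, had its highest values at 1.5 h and, of the 7 genes, the largest ratio of the highest to the lowest library, 67.5 in CPM, against 19.2 for CYP1A1 and 10.7 for CYP1A2. Its counts scaled to 20.3, 42.5 and 24.5 CPM at 1.5 h, 16.2, 33.7 and 4.6 CPM at 3.5 h and 8.93, 19.7 and 4.62 CPM at 5.5 h, against 10.3, 16.5 and 0.63 CPM at 0 h. The 1.5 h libraries all lay above the 0 h libraries, and the later times overlapped them. The 0 h value of number 3 rests on 31 counts, and the pair fold at 1.5 h was 1.97, 2.58 and 38.9 for numbers 1, 2 and 3. The log2 difference from 0 h was 1.67 ± 0.95 at 1.5 h, 0.99 ± 0.94 at 3.5 h and 0.28 ± 0.93 at 5.5 h (SE).

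**Figure D1:**
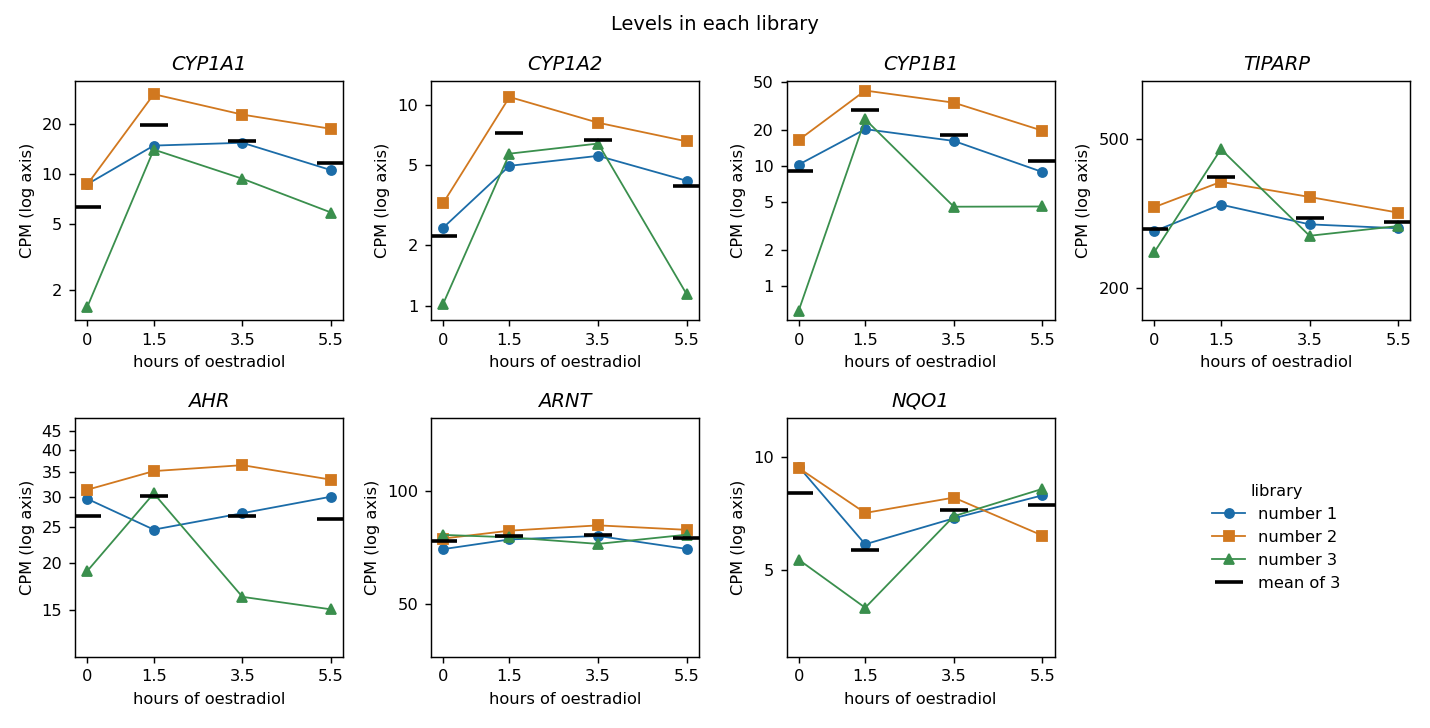
Level of each gene in CPM (log axis) against hours of oestradiol, with 1 line for each library number and a bar for the mean of 3. CYP1A1 and CYP1A2 lie above all 0 h values at 1.5 and 3.5 h in every number, CYP1B1 at 1.5 h, and ARNT stays between 70.1 and 81.1 CPM.

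The deposited FPKM values of CYP1B1 did not follow its counts in 2 libraries. At 0 h in number 3, the 31 counts correspond to 0.328 FPKM by the ratio of count to FPKM in the other libraries, while the deposited value is 6.89 FPKM, 21-fold apart. That value equals the mean of the other 0 h libraries (5.31 and 8.47 FPKM) to within 0.029%. At 3.5 h in number 2, 1657 counts correspond to 17.1 FPKM and the deposited value is 9.51 FPKM. Of 13434 genes compared, 4 had a value off by more than 0.1 on the log2 scale: CYP1B1 and the calgranulin genes S100A8, S100A9 and S100A12. The largest gap in any other gene was 0.07. On the deposited FPKM the CYP1B1 means are 14.7 at 1.5 h, 6.68 at 3.5 h and 5.7 at 5.5 h, against 6.89 at 0 h. From the counts they are 14.7, 9.23 and 5.7, against 4.7 at 0 h. The direction at 3.5 h and at 5.5 h against 0 h therefore differs between the deposited FPKM per library and the counts. The authors' deposited enrichment tables give CYP1B1 13.5 FPKM for the 3.5 h group against 5.85 for the 0 h group, which is the direction of the counts. The cause was not tested. The CPM values and log2 differences of CYP1B1 above and below come from its counts, and the mean of 8.49 FPKM from the deposited FPKM.

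**Figure D2:**
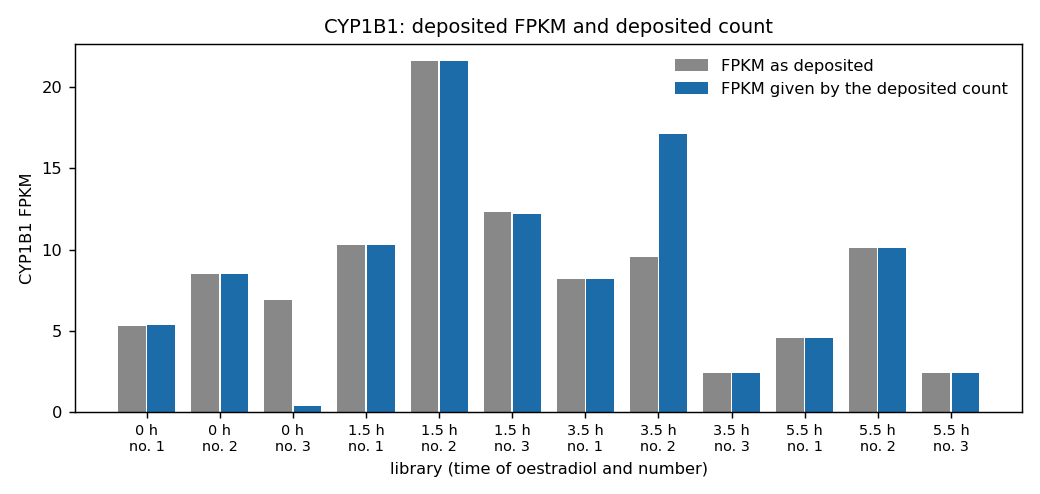
CYP1B1 in each of the 12 libraries, as the deposited FPKM (grey) and as the FPKM that its deposited count gives (blue). The bars differ at 0 h in number 3 (6.89 and 0.328 FPKM) and at 3.5 h in number 2 (9.51 and 17.1 FPKM).

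TIPARP, a mono-ADP-ribosyltransferase that is induced by the receptor and in turn inhibits it, differed less than the CYP1 genes. It had 334, 384 and 469 CPM in numbers 1, 2 and 3 at 1.5 h, 296, 350 and 276 CPM at 3.5 h and 289, 318 and 293 CPM at 5.5 h, against 284, 329 and 250 CPM at 0 h. The 1.5 h libraries all lay above the 0 h libraries, and the later times overlapped 0 h. The log2 difference from 0 h was 0.46 ± 0.15 at 1.5 h (SE), or 1.38-fold, 0.09 ± 0.15 at 3.5 h and 0.06 ± 0.15 at 5.5 h. Number 3 had the largest pair difference at 1.5 h, 1.88-fold, against 1.18-fold and 1.17-fold in numbers 1 and 2. With numbers 1 and 2 alone the log2 difference at 1.5 h was 0.23 ± 0.07 (SE).

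The receptor itself differed little. AHR had 24.6, 35.2 and 30.7 CPM at 1.5 h, 27.2, 36.5 and 16.3 CPM at 3.5 h and 30.1, 33.4 and 15.1 CPM at 5.5 h, against 29.7, 31.4 and 19.1 CPM at 0 h. All times overlapped, and the 3 values under 20 CPM were those of number 3 at 0, 3.5 and 5.5 h. The log2 difference from 0 h was 0.18 ± 0.34 at 1.5 h, −0.00 ± 0.34 at 3.5 h and −0.03 ± 0.34 at 5.5 h (SE). ARNT was the steadiest of the 7 genes, between 70.1 and 81.1 CPM in the 12 libraries, with log2 differences of 0.04, 0.05 and 0.03 at 1.5, 3.5 and 5.5 h, each ± 0.08 (SE).

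NQO1, a quinone reductase under both this receptor and the oxidative stress factor NRF2, was lower at 1.5 h in every pair. It had 5.87, 7.11 and 3.98 CPM in numbers 1, 2 and 3 at 1.5 h, 6.88, 7.81 and 6.97 CPM at 3.5 h and 7.92, 6.19 and 8.24 CPM at 5.5 h, against 9.43, 9.36 and 5.34 CPM at 0 h. The groups overlapped at every time, with number 3 the lowest library at 0 h. The log2 difference from 0 h was −0.51 ± 0.26 at 1.5 h (SE), −0.16 ± 0.26 at 3.5 h and −0.11 ± 0.26 at 5.5 h. At 5.5 h numbers 1 and 2 were lower than at 0 h (0.84-fold and 0.661-fold), and number 3 was 1.54-fold higher.

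**Figure D3:**
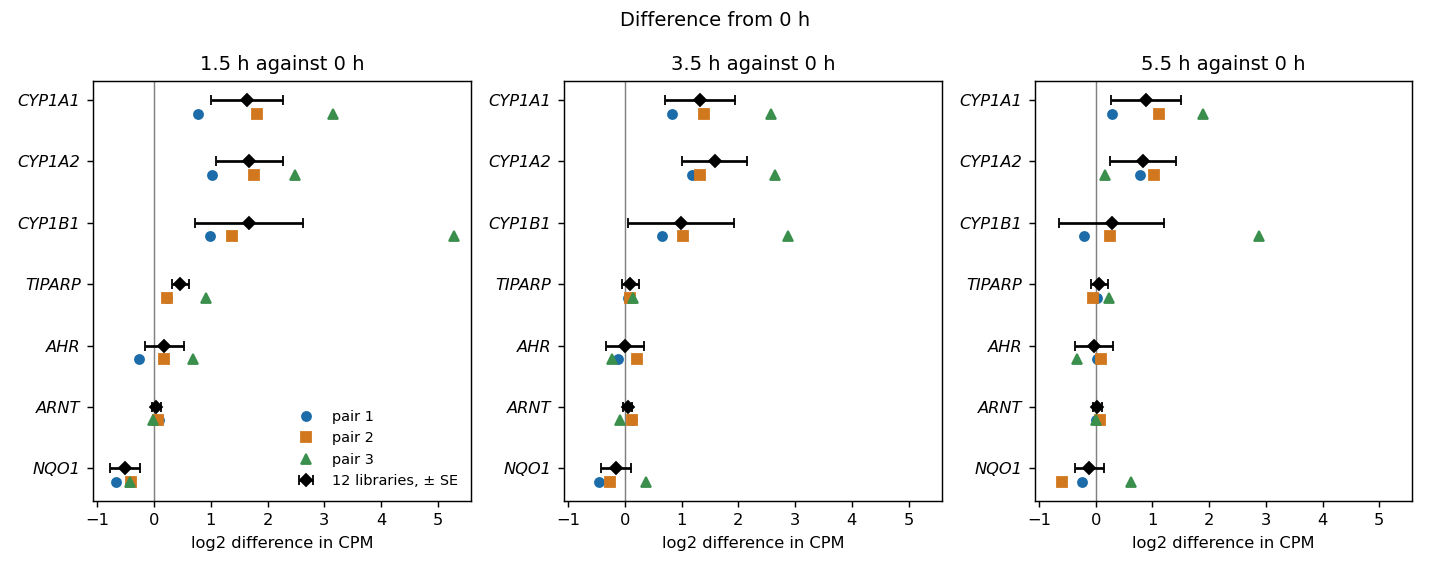
Log2 difference in CPM from 0 h of each gene at 1.5, 3.5 and 5.5 h, as the estimate over 12 libraries (diamond, ± SE) and in each same-numbered pair (coloured points). Pair 3 gives the largest difference of CYP1A1 and CYP1B1 at all 3 times, and the 3 pairs of NQO1 lie below 0 at 1.5 h.

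Counts of genes called are given with the share called among all genes tested, and nothing is read from them because the same contrast was in view when the genes were chosen. With edgeR on all 12 libraries (quasi-likelihood test, adjusted p under 0.05), 0 of 7 were called at any time against 0 h, where 0% of 12025 genes were called at each time, with 287, 260 and 252 genes at an unadjusted p under 0.05 at 1.5, 3.5 and 5.5 h. With the library number as a block 0 of 7 were called as well, where 0.00832% of genes were called at 1.5 h and 0% at 3.5 and 5.5 h. Genes at an unadjusted p under 0.05 then numbered 1180, 782 and 783. With DESeq2 and the same block, CYP1A1 and CYP1A2 were called higher at 1.5 h (0.798% of genes called) and at 3.5 h (0.283%), and none of the 7 at 5.5 h (0.266%). Libraries did not overlap between the treated time and 0 h in 4 of 7 genes at 1.5 h (8.32% of genes tested), 2 of 7 at 3.5 h (6.76%) and 0 of 7 at 5.5 h (6.92%). All 3 pairs differed in 1 direction in 5 of 7 genes at 1.5 h (28% of genes tested), 4 at 3.5 h (32.8%) and 3 at 5.5 h (31%). The median log2 difference of the 7 genes was 0.46 at 1.5 h, 0.09 at 3.5 h and 0.06 at 5.5 h, against 0.00, 0.00 and 0.01 over all genes tested.

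The CYP1 differences moved when single libraries were left out. Without the 0 h library numbered 3, the log2 difference of CYP1A1 was 1.18 ± 0.53 at 1.5 h, 0.87 ± 0.53 at 3.5 h and 0.44 ± 0.52 at 5.5 h (SE). CYP1A2 was at 1.34 ± 0.61, 1.24 ± 0.61 and 0.48 ± 0.59, and CYP1B1 at 1.12 ± 0.78, 0.44 ± 0.76 and −0.27 ± 0.75. Without the 1.5 h library numbered 2, CYP1A1, CYP1A2 and CYP1B1 were at 1.19 ± 0.66, 1.25 ± 0.62 and 1.29 ± 1.06 at 1.5 h. Without the 3.5 h library numbered 2, they were at 0.97 ± 0.68, 1.42 ± 0.65 and 0.18 ± 1.00 at 3.5 h. Without the 5.5 h library numbered 2, they were at 0.38 ± 0.65, 0.25 ± 0.59 and −0.44 ± 1.04 at 5.5 h. CYP1B1 was therefore on either side of 0 at 5.5 h. Without the 0 h library numbered 2 it was higher instead, at 2.40 ± 1.12, 1.72 ± 1.08 and 1.01 ± 1.05 at 1.5, 3.5 and 5.5 h. CYP1A1 was then higher as well, at 1.93 ± 0.75, 1.62 ± 0.74 and 1.19 ± 0.72, and so was CYP1A2, at 2.04 ± 0.69, 1.94 ± 0.68 and 1.19 ± 0.66. Without the 5.5 h library numbered 3, CYP1A1, CYP1A2 and CYP1B1 were at 1.21 ± 0.64, 1.26 ± 0.47 and 0.64 ± 1.01 at 5.5 h. Without the 0 h library numbered 3, NQO1 at 1.5 h was at −0.73 ± 0.24, and at −0.31 ± 0.26 without the 1.5 h library numbered 3. With all 12 libraries and the number as a block, CYP1A1 was at 1.80 ± 0.34, 1.45 ± 0.33 and 0.95 ± 0.33 at 1.5, 3.5 and 5.5 h. CYP1A2 was then at 1.74 ± 0.40, 1.73 ± 0.40 and 0.75 ± 0.39, and CYP1B1 at 2.27 ± 0.62, 1.09 ± 0.58 and 0.52 ± 0.58. With numbers 1 and 2 alone and the number as a block, CYP1A1, CYP1A2 and CYP1B1 were higher at 1.5 h by 1.28 ± 0.22, 1.40 ± 0.22 and 1.17 ± 0.14 (log2, SE), and at 5.5 h by 0.68 ± 0.22, 0.90 ± 0.21 and 0.03 ± 0.13.

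Markers of other cell types differed between the times as well, and the smooth muscle and fibroblast sums did so most widely in number 3. The 6 smooth muscle markers with a row, of 6 listed, summed to 935 to 1909 CPM at 1.5 h, 301 to 1545 CPM at 3.5 h and 515 to 1412 CPM at 5.5 h, against 196 to 1025 CPM at 0 h, mostly from TAGLN (mean 919 CPM). Desmin (DES) averaged 0.0404 CPM and ACTG2 0.554 CPM. MYH11 lay between 3.51 and 5.08 CPM in the 12 libraries, ACTA2 between 6.58 and 39.4 CPM and CNN1 between 3.05 and 117 CPM. The members of this list therefore did not vary alike. The pair fold of this sum at 1.5 h against 0 h was 1.17 and 1.34 in numbers 1 and 2 and 9.72 in number 3. It was 1.15, 1.51 and 1.53 at 3.5 h and 1.15, 1.38 and 2.62 at 5.5 h, so this sum was higher than at 0 h in all 3 pairs at every time. The 6 fibroblast markers with a row, of 7 listed, summed to 76.9 to 112 CPM at 1.5 h, 15.7 to 82.2 CPM at 3.5 h and 27.9 to 74.2 CPM at 5.5 h, against 16.9 to 82.2 CPM at 0 h. Their pair fold at 1.5 h was 0.946, 0.965 and 6.66 for numbers 1, 2 and 3, and PDGFRB averaged 0.0821 CPM. At 3.5 h it was 0.944, 1 and 0.933, and at 5.5 h 0.845, 0.902 and 1.65. The 4 ciliated markers summed to 24.1, 11 and 11.5 CPM in numbers 1, 2 and 3 at 5.5 h, against 37.9, 26.3 and 15.2 CPM at 0 h. TPPP3, the only one of them above the minimum, was lower in all 3 pairs at 3.5 h (log2 differences of −0.58, −0.82 and −0.08) and at 5.5 h (−0.70, −1.30 and −0.43). All 3 pairs differed in 1 direction in 32.8% and 31% of genes tested at these times. The endothelial markers summed to 174, 208 and 66.5 CPM in numbers 1, 2 and 3 at 1.5 h, against 151, 160 and 99.8 CPM at 0 h. The part of these markers in the differences of the 7 genes was not tested.

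**Figure D4:**
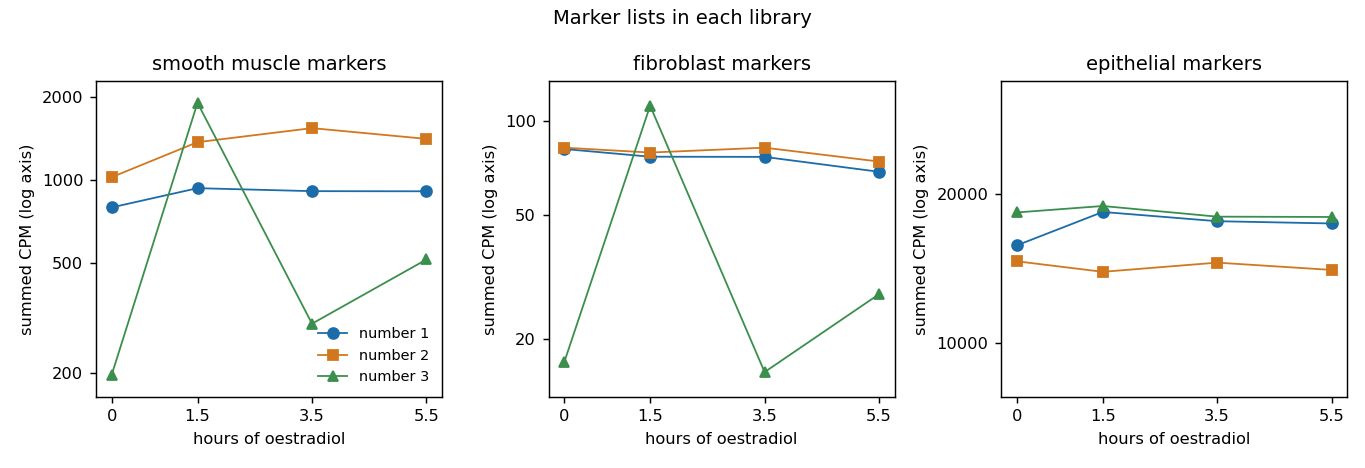
Summed CPM (log axis) of the smooth muscle, fibroblast and epithelial marker lists against hours of oestradiol, with 1 line for each library number. Number 3 has 1909 CPM of smooth muscle markers at 1.5 h against 196 CPM at 0 h, and the epithelial sum lies between 13925 and 18890 CPM in every library.

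Among the treated times, the CYP1 genes were lower at 5.5 h than at 1.5 h in all 3 pairs. The log2 difference, 5.5 h against 1.5 h, was −0.75 ± 0.61 for CYP1A1, −0.86 ± 0.57 for CYP1A2 and −1.39 ± 0.94 for CYP1B1 (SE). CYP1B1 had 0.441, 0.463 and 0.188 times its 1.5 h level in numbers 1, 2 and 3. The libraries of CYP1B1 and of TIPARP did not overlap between these times. The share of all genes that did not overlap, or that differed in 1 direction in all 3 pairs, was not analysed here for this comparison. Nothing is therefore read from either. TIPARP was lower as well, with log2 differences of −0.40 ± 0.15 at 5.5 h and −0.37 ± 0.15 at 3.5 h against 1.5 h. Against 3.5 h, the 5.5 h values were −0.43 ± 0.61 for CYP1A1, −0.75 ± 0.57 for CYP1A2 and −0.71 ± 0.93 for CYP1B1. With edgeR 0 of 7 genes were called in these 3 comparisons, in each of which 0% of genes were called and 161 (3.5 h against 1.5 h), 210 (5.5 h against 1.5 h) and 92 (5.5 h against 3.5 h) genes had an unadjusted p under 0.05. With the library number as a block these became 616, 972 and 266 genes.

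The authors' deposited table gives CYP1A1 a fold of 3.06 at 1.5 h, 2.48 at 3.5 h and 1.85 at 5.5 h against 0 h, and CYP1A2 3.16, 2.97 and 1.77. It marks CYP1A1, CYP1A2 and CYP1B1 as significant at 1.5 h, when 0.671% of 18340 genes are marked, CYP1A1 and CYP1A2 at 3.5 h (0.322%) and none of the 7 at 5.5 h (0.251%). The q-values in the authors' deposited table are high: at 1.5 h they are 0.757 for CYP1A1, 0.599 for CYP1A2 and 1 for CYP1B1. Over all genes, 123, 59 and 46 are marked at 1.5, 3.5 and 5.5 h, while 3, 7 and 5 have a q-value under 0.05. Most marks therefore do not rest on a q-value under 0.05, and the CYP1 genes are no exception. For CYP1B1 the folds in the authors' deposited table follow neither its printed FPKM nor the counts throughout. At 1.5 h the authors' deposited table gives 2.13, equal to the ratio of its printed FPKM, while the counts give 3.13. At 3.5 h the authors' deposited table gives 1.96, equal to the ratio from the counts, while its printed FPKM give 0.97. At 5.5 h the authors' deposited table gives 0.87, while its printed FPKM give 0.827 and the counts 1.21. In the authors' deposited enrichment tables, the gene ontology term for toxin metabolic process lists the 3 CYP1 genes and ranks second of 826 terms at 1.5 h and first of 249 at 3.5 h. No other gene is listed under it at either time, so its rank restates the CYP1 differences and adds no support to them. The authors' deposited pathway tables list CYP1A1 and CYP1B1 under steroid hormone biosynthesis at both times, although CYP1B1 is not marked as significant at 3.5 h. At 5.5 h, of the 7 genes CYP1A2 alone appears among the 421 ontology terms of the authors' deposited tables, in 36 of them, and none among the 64 pathways.

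The other genes of the pathway were described through 6 lists. The receptor complex list holds HSP90 chaperones, the co-chaperone PTGES3 and coactivators. Of 19 tested genes, 8 were higher and 11 lower at 1.5 h, 6 and 13 at 3.5 h, and 7 and 12 at 5.5 h against 0 h. With edgeR 0 were called at each time, and the medians were −0.05, −0.01 and −0.01, against 0.00, 0.00 and 0.01 over all genes tested. The NF-kB subunit RELB, which can pair with the receptor, averaged 22.8 ± 2.7 CPM at 1.5 h and 16.5 ± 1.93 CPM at 0 h (SD, n = 3). Its log2 difference was 0.47 ± 0.18 (SE; edgeR adjusted p = 1), with 0.41, 0.53 and 0.46 in pairs 1, 2 and 3, and it was called by DESeq2 with the number as a block (adjusted p = 0.0285). The coactivator NCOA1 averaged 22.7 ± 3.36 CPM at 1.5 h and 32.9 ± 7.89 CPM at 0 h, at −0.54 ± 0.24 (edgeR adjusted p = 1). Of the 2 genes with the smallest p at the later times, RB1 was at −0.32 ± 0.21 at 3.5 h and SMARCA4 at −0.12 ± 0.09 at 5.5 h, beside RELB at 0.23 ± 0.18 and 0.34 ± 0.18.

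Other bHLH-PAS factors, the family of AHR and ARNT, were tested for 6 of 15 names, with 3 higher and 3 lower at each time against 0 h, and edgeR called 0. HIF1A, the hypoxia factor that competes for ARNT, averaged 219 ± 29.6 CPM at 3.5 h and 214 ± 10.4 CPM at 5.5 h, against 168 ± 14.9 CPM at 0 h (SD, n = 3). It was higher in all 3 pairs at both times and its libraries did not overlap those at 0 h, with log2 differences of 0.38 ± 0.11 and 0.35 ± 0.11 (edgeR adjusted p = 1 at both times). Of all genes tested, 6.76% at 3.5 h and 6.92% at 5.5 h did not overlap 0 h. A share of 32.8% and 31% differed in 1 direction in all 3 pairs, so nothing is read from either property of HIF1A. At 1.5 h HIF1A was at 0.17 ± 0.11. The clock factor ARNTL averaged 13.2 ± 1.82 CPM at 1.5 h and 14.5 ± 0.362 CPM at 3.5 h, against 16.6 ± 2.32 CPM at 0 h, and its partner CLOCK was at 0.26 ± 0.14 at 5.5 h.

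Genes described as receptor targets in other species, beyond the 7, were tested for 16 of 24 names. They split into 8 higher and 8 lower at 1.5 h, and 10 and 6 at each later time against 0 h, with medians of 0.00, 0.10 and 0.10 and 0 called with edgeR. The medians over numbers 1 and 2 alone were 0.21, 0.24 and 0.23. In the other lists those medians lay between −0.09 and 0.06 at 1.5 h, −0.05 and 0.26 at 3.5 h, and −0.19 and 0.07 at 5.5 h. The median of all genes tested over numbers 1 and 2 alone was not analysed here. UGT1A1, which conjugates bilirubin and oestradiol, averaged 7.1 ± 2.32 CPM at 3.5 h and 6.7 ± 2.14 CPM at 5.5 h, against 4.16 ± 0.993 CPM at 0 h. It was higher in all 3 pairs at both times, by 0.77 ± 0.36 and 0.69 ± 0.36 on the log2 scale (edgeR adjusted p = 1). All 3 pairs differed in 1 direction in 32.8% of genes tested at 3.5 h and 31% at 5.5 h. The protease inhibitor SERPINB2 averaged 9.98 ± 1.62 CPM at 5.5 h and 6.22 ± 1.07 CPM at 0 h, with pair differences of 0.68, 0.80 and 0.56. The docking protein NEDD9 averaged 693 ± 67.3 CPM at 1.5 h and 573 ± 43.2 CPM at 0 h, at 0.28 ± 0.13, and NFE2L2, the gene of NRF2, was at 0.18 ± 0.11. FOSL2, an AP-1 subunit, was at 0.26 ± 0.16 at 3.5 h.

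Enzymes of tryptophan breakdown, a source of receptor ligands, were tested for 3 of 17 names. Another 7 lay below the minimum, among them IDO2, TDO2, KYNU and KMO, and the other 7 matched no row and were not analysed here. KYAT3, a kynurenine aminotransferase, averaged 21.2 ± 0.336 CPM at 1.5 h and 21.3 ± 0.524 CPM at 5.5 h, against 18.4 ± 0.923 CPM at 0 h, with log2 differences of 0.20 ± 0.11 and 0.21 ± 0.11. IL4I1, an amino acid oxidase, was at 0.32 ± 0.22 at 3.5 h and −0.09 ± 0.22 at 5.5 h, and AFMID, an arylformamidase, at −0.34 ± 0.95 at 1.5 h. The medians were 0.05, 0.32 and −0.09 at 1.5, 3.5 and 5.5 h, and edgeR called 0.

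The NRF2 pathway, which shares NQO1, had 20 of 23 names tested. At 1.5 h 8 were higher and 12 lower than at 0 h, and at 3.5 and 5.5 h 9 were higher and 11 lower. The medians were −0.05, −0.03 and −0.01, and edgeR called 0. The ferritin light chain gene FTL averaged 885 ± 133 CPM at 5.5 h and 722 ± 115 CPM at 0 h, at 0.29 ± 0.19 and higher in all 3 pairs. At 5.5 h 31% of genes tested differed in 1 direction in all 3 pairs. Malic enzyme ME1 was at 0.21 ± 0.10 at 5.5 h. The NRF2 repressor KEAP1 was at −0.18 ± 0.11 and thioredoxin TXN at −0.18 ± 0.12 at 3.5 h, and MAFG, a small Maf partner of NRF2, at −0.19 ± 0.09 at 1.5 h.

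Enzymes that make, conjugate or release oestradiol were tested for 13 of 24 names. At 1.5 and 3.5 h 7 were higher and 6 lower than at 0 h, and at 5.5 h 8 and 5, with medians of 0.07, 0.01 and 0.03 and 0 called with edgeR. HSD17B11, a hydroxysteroid dehydrogenase, averaged 141 ± 48.9 CPM at 1.5 h and 107 ± 16.8 CPM at 0 h, with pair differences of −0.17, 0.10 and 1.13. HSD17B4 was at 0.11 ± 0.08 at 1.5 h and HSD17B12 at 0.22 ± 0.17 at 3.5 h. The electron donor CYB5A was at −0.12 ± 0.11 at 5.5 h. POR, the reductase that supplies electrons to the CYP1 enzymes, averaged 112 CPM at 1.5 h and 116 CPM at 0 h.

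**Figure D5:**
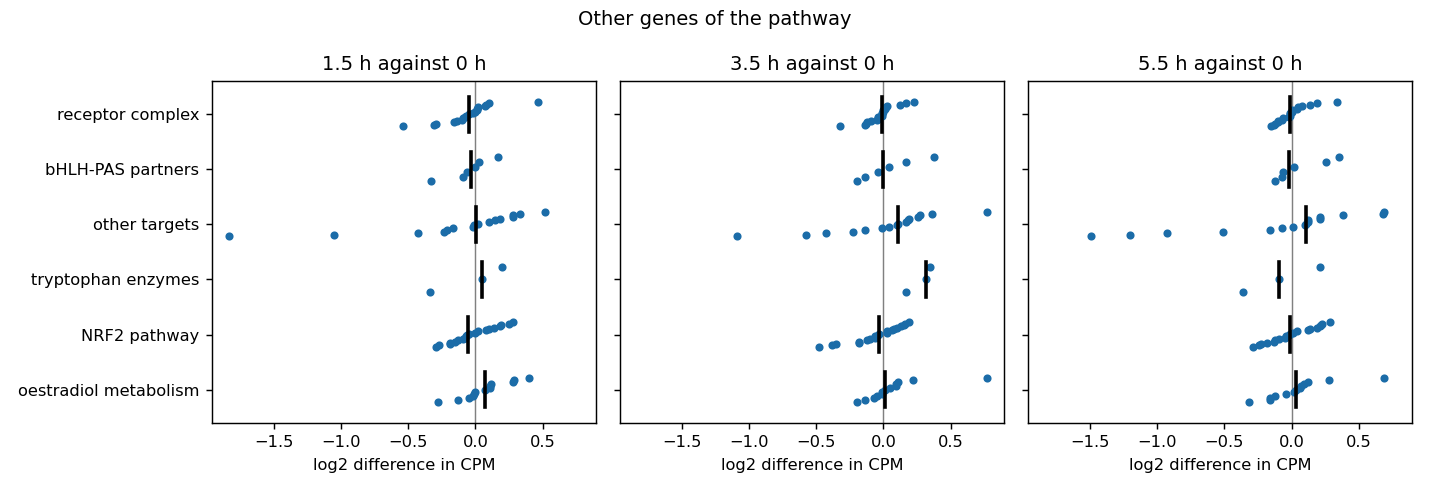
Log2 difference in CPM from 0 h of every tested gene (points) in the 6 lists at 1.5, 3.5 and 5.5 h, with the median of each list (bar). The medians lie between −0.09 and 0.32, and edgeR called none of these genes.

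The genes whose pattern over the 12 libraries was most like that of CYP1A1 were found by Pearson's r of log2 CPM, after the mean of each library number was subtracted. They were PPP1R18 (0.951), SCAF8 (0.944), ZNF397 (0.941), LIPT1 (0.94) and ENSOARG00000018128 (0.939). CYP1B1 had an r of 0.917 with CYP1A1, CYP1A2 0.868, TIPARP 0.712, AHR 0.329, ARNT 0.19 and NQO1 −0.344. For CYP1B1 the nearest were ENSOARG00000003759 (0.971), SCAMP5 (0.968), TNFRSF21 (0.967), MTHFD2L (0.958) and ENSOARG00000018128 (0.947). For TIPARP they were UNC5B (0.971), SNAI1 (0.97), PABPC4 (0.968), MGST2 (0.962) and DGKA (0.958). These values describe 12 libraries that share 4 times and 3 numbers. Without the subtraction, 3 of 5 genes were shared for CYP1A1, 2 for CYP1B1 and 0 for TIPARP.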

How the data were processed

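Per the file headers, each gene in the authors' deposited table has a count and an FPKM value in every library, and each transcript likewise in the isoform table. The authors' deposited comparison tables hold a ratio (fold), its log2, and p-value and q-value columns whose test is not stated, and their enrichment tables a p-value per term. TopHat2 2.0.9 and Cufflinks appear in the submitters' processing notes, with no step named. Neither the counting tool nor the genome build is given in the sources used here. A further 42 columns of per-sample values went unused.

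The genes, lists and alternatives were chosen with earlier results of these data known. Of 18340 genes, 4788 had no symbol, and 1145 of these were named by a table of RefSeq names (ARS-UI_Ramb_v3.0 assembly), whose coordinates were not used. Genes with a mean of 1 FPKM or more (12025) had their counts fitted in 1 model of 4 times over 12 libraries in R 4.3.3, using edgeR 4.0.16 with limma 3.58.1 (TMM factors 0.975 to 1.02, quasi-likelihood F tests, Benjamini-Hochberg adjustment, threshold 0.05). DESeq2 1.42.0 was an alternative. SE is the log2 difference divided by the root of F. CPM uses the TMM-adjusted library size, and correlations use log2 CPM with a prior count of 2. The test was tried on simulated data that held no effect of the library number, so that trial does not show how the test behaves with such an effect.

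Deviations from the group mean correlated at 0.218 to 0.705 in all 18 pairs with the same number, and at −0.6 to 0.331 in 36 others. As all 18 passed 0.1, differences were also given within same-numbered pairs. The main edgeR fit had no term for the number, so its SEs include the spread between numbers. No 2 libraries of 1 time agreed within counting error (34.9 to 267 for the chi-square over its degrees of freedom). At this depth 3 counts came to 0.0378 to 0.0619 CPM, which covers counting error only. The text names all 7 genes, each list gene called with edgeR, the 2 of each list with the smallest p at each time against 0 h, and 5 like genes per target. POR, the untested tryptophan enzymes and the DESeq2 call of RELB were named after their values were seen. Promoter motifs of these genes were not analysed here, and 1 list gene is not reported by name.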

Additional observations from a re-analysis of the deposited data

How the results depend on the processing

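The count of genes called was the least stable value. With edgeR it was 0 in all 6 comparisons, and also 0 in each with RLE normalization and with no filter. With the library number as a replicate block edgeR called 1 gene at 1.5 h against 0 h and 1 at 5.5 h against 1.5 h. DESeq2 called 1, 6 and 7 genes at 1.5, 3.5 and 5.5 h against 0 h, and 3, 2 and 1 at 3.5 h against 1.5 h, 5.5 h against 1.5 h and 5.5 h against 3.5 h. DESeq2 with the replicate block, an alternative chosen after seeing the data, called 96, 34, 32, 7, 9 and 4 in the same order, with 2 of the 7 pathway genes at 1.5 h and 2 at 3.5 h against 0 h. Numbers 1 and 2 alone with the block gave 21, 28 and 71 genes at 1.5, 3.5 and 5.5 h against 0 h and 1 at 5.5 h against 1.5 h, with 1 pathway gene, CYP1B1, at 1.5 h against 0 h. Leaving out 1 library at a time gave 0 to 1 genes, or 0 to 2 at 5.5 h against 1.5 h, and 0 pathway genes. The counts above 0 came without the 1.5 h library numbered 3 (1 gene at 1.5 h against 0 h, and 1 in each later comparison with 1.5 h) or without the 5.5 h library numbered 1 (1 at 5.5 h against 0 h, 2 against 1.5 h and 1 against 3.5 h). With edgeR on all 12 libraries, the block changed no call beyond those given above. Of 798 recomputed log2 differences of the 7 genes, 796 moved by less than 1 SD between replicates, and the other 2 were TIPARP with numbers 1 and 2 alone, at 0.23 at 1.5 h against 0 h and −0.15 at 3.5 h against 1.5 h. This count is no measure of stability. Leaving out a library of neither time compared could hardly move a difference, and the SD within times includes the spread between numbers. CYP1B1 at 3.5 h against 0 h, 0.99 in the main fit and −0.04 on the deposited FPKM, counts as under 1 SD. On the deposited FPKM, also added after seeing the data, CYP1B1 changed sign at 3.5 h and 5.5 h against 0 h. Without centring on the number, 5 of the 15 like genes were shared (3 of CYP1A1, 2 of CYP1B1 and 0 of TIPARP). The causes were not tested. At 31 to 78 counts in the 0 h library numbered 3, the CYP1 folds of pair 3 against 0 h carry the most counting error. Libraries of 1 time differed by more than counting error, and the part of low counts in these folds was not tested.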
